A study of Mus spretus with 8 samples.

Results

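The genes described here handle iron in the liver: they take it up from blood, store it, export it and set the level of the iron hormone hepcidin. They were chosen by name, as all probes annotated with 1 of 10 gene symbols, which gave 23 probes of the 42957 on the array and 10 of 22471 named genes. Tfrc had 12 probes, Trf and Slc11a2 had 2 each, and Tfr2, Ftl1, Slc40a1, Hamp, Hamp2, Bmp6 and Hfe had 1 each. Their Entrez gene identifiers in the annotation are 22042 (Tfrc), 22041 (Trf), 18174 (Slc11a2), 50765 (Tfr2), 14325 (Ftl1), 53945 (Slc40a1), 84506 (Hamp), 66438 (Hamp2), 12161 (Bmp6) and 15216 (Hfe). The livers came from SPRET/EiJ mice, an inbred strain of Mus spretus, all male and 7 weeks old at the start, with 4 mice in each group. For 30 days the DDE group ate Harlan diet carrying corn oil and p,p'-DDE, a persistent breakdown product of the insecticide DDT, at 450 mg/kg. The control group ate the same diet with corn oil and no DDE, so both groups carried the strain's background and the oil. Total liver RNA of each mouse was hybridised to 1 one-colour array, and the comparison asks which liver transcripts differed after the DDE diet.

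Iron travels in blood bound to transferrin, and cells take up the complex through transferrin receptor 1. Inside the cell it is kept in ferritin, and it leaves through ferroportin. Hepcidin, a peptide hormone that hepatocytes secrete, makes ferroportin be degraded, and hepatocytes raise its transcription in response to BMP6 and to iron-loaded transferrin sensed through HFE and transferrin receptor 2. Transferrin receptor 1 and ferritin transcripts carry iron-responsive elements, bound by iron regulatory proteins when cells lack iron.

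Each level below is a normalized log2 signal and each difference is DDE minus control on the log2 scale, given with its standard error (SE) and tested with limma over all probes. P-values were adjusted by the Benjamini-Hochberg method, and a gene is said to have risen or fallen when its adjusted p was under 0.05. The 8 arrays had medians of 7.46 to 7.47, and every array reached its highest value at 16. The background level of an array, set from probes of olfactory and vomeronasal receptors, was between 7.55 and 7.81. Bright or dark local patches, called stains here, covered 0.521% to 9.5% of the spots of an array, with control 4 at 9.5% and DDE 4 at 7.59%. A stain touched 5 member probes: Hamp in control 4, 1 Tfrc probe in controls 2 and 3, another in DDE 4, 1 Trf probe in control 2 and the other in DDE 2 and DDE 3. How well each probe binds a Mus spretus transcript was not tested.

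Transferrin receptor 1 rose, transferrin receptor 2 fell, and the other 8 genes did not pass the test. Of the 23 probes, 10 rose, all of them for Tfrc, and 1 fell, that of Tfr2. The number risen was 5 without control 2 and 4 without DDE 2, and the number fallen was 0 without any 1 of the 8 mice. Over the whole array 2.34% of probes rose and 0.661% fell (1005 and 284), and 1504 rose and 1091 fell with stained spots dropped and all others quantile normalized. With 1 value per gene and mouse, the mean over a gene's probes, 1 of the 10 genes rose and 1 fell, beside 2.72% and 0.73% of all named genes. The 12 probes of Tfrc share a gene and may share a sequence, so their number adds no independent evidence.

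**Figure D1:**
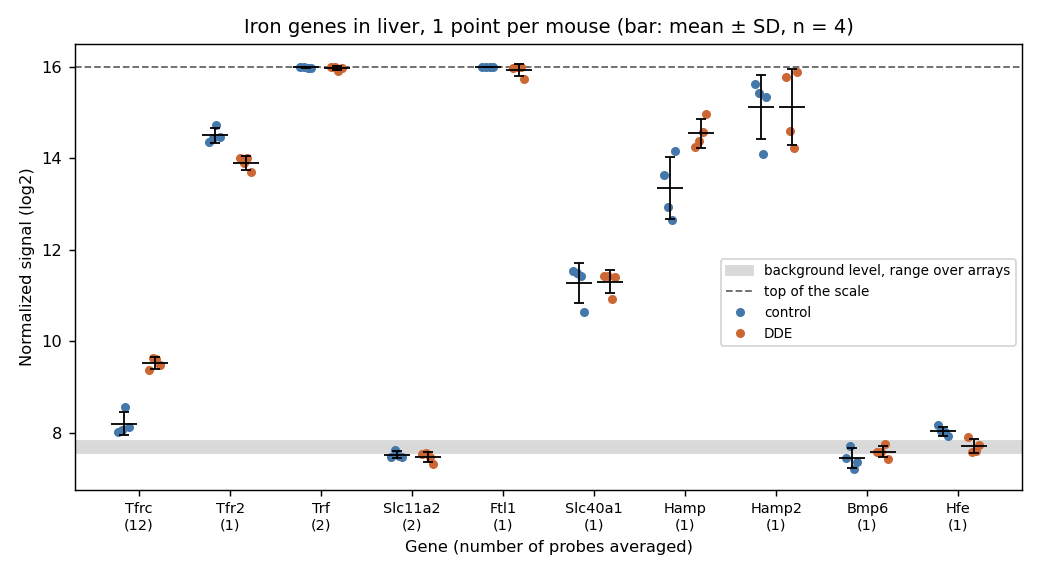
Normalized log2 signal (vertical axis) of the 10 genes, as the mean over each gene's probes, with 1 point per mouse, bars for mean ± SD (n = 4 mice), a grey band for the background level and a dashed line for the top of the scale at 16. Tfrc and Hamp have every DDE mouse above every control mouse, Tfr2 and Hfe the reverse, Trf and Ftl1 lie at the top of the scale, and Slc11a2 and Bmp6 lie in or near the background band.

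Tfrc encodes transferrin receptor 1, which carries iron-loaded transferrin into the cell. Averaged over its 12 probes, its signal was 8.01, 8.07, 8.57 and 8.12 in controls 1 to 4, and 9.36, 9.64, 9.60 and 9.49 in DDE mice 1 to 4. The lowest DDE mouse lay above the highest control, and the spread within either group was small beside the gap. The mean went from 8.20 ± 0.26 to 9.52 ± 0.13 (SD, n = 4), a 2.51-fold rise (1.33, SE 0.14, 95% confidence interval 1.00 to 1.65, limma adjusted p = 0.00795). As this is whole liver, more Tfrc RNA per cell and more cells that express it cannot be told apart.

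Of the 12 single Tfrc probes, 10 showed the same rise. Among the 10 that passed, the fold ran from 2.28 at probe 7771 to 3.75 at probe 31727. These 2 probes each passed in 1 of the 8 fits without 1 mouse. Probes 19983, 21710, 35705 and 37639 passed in all 8, and the rest of the 10 in 5 to 7. At probe 37639, which had the smallest p of the set, the controls read 8.07, 7.84, 8.44 and 8.07 and the DDE mice 9.52, 9.97, 9.91 and 9.81 (1.70, SE 0.15, limma adjusted p = 0.00636). The value behind the largest fold included DDE 4 at 11.22, on a stained spot, while the other 3 DDE mice read 9.61 to 10.21 there. At probe 21710, with stained spots in controls 2 and 3, the controls read 8.34 to 9.19 and the DDE mice 10.19 to 10.27. All 10 of these probes were above background in all 8 mice, and at each of them every DDE mouse was above every control.

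The other two Tfrc probes did not pass. Probe 4188 read 7.09 to 7.30 in controls and 7.34 to 7.54 in DDE mice, at or below background in all 8 mice, and its groups did not overlap (0.25, limma adjusted p = 0.151). Probe 23596 read 7.49, 8.22, 8.39 and 7.85 in controls and 8.58, 8.46, 8.16 and 8.28 in DDE mice, with overlap (0.38, SE 0.21, limma adjusted p = 0.478). It was above background in 3 controls and 4 DDE mice, while control 1, at 7.49, was below it. Why it differed from the other probes was not tested. The mean over all 12 probes includes both, and the median over the probes gave a difference of 1.48 (limma adjusted p = 0.00678). The call on the mean held in all 8 fits that left out 1 mouse (1.27 to 1.45) and without control 4 and DDE 4 together (1.31, limma adjusted p = 0.0286).

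**Figure D2:**
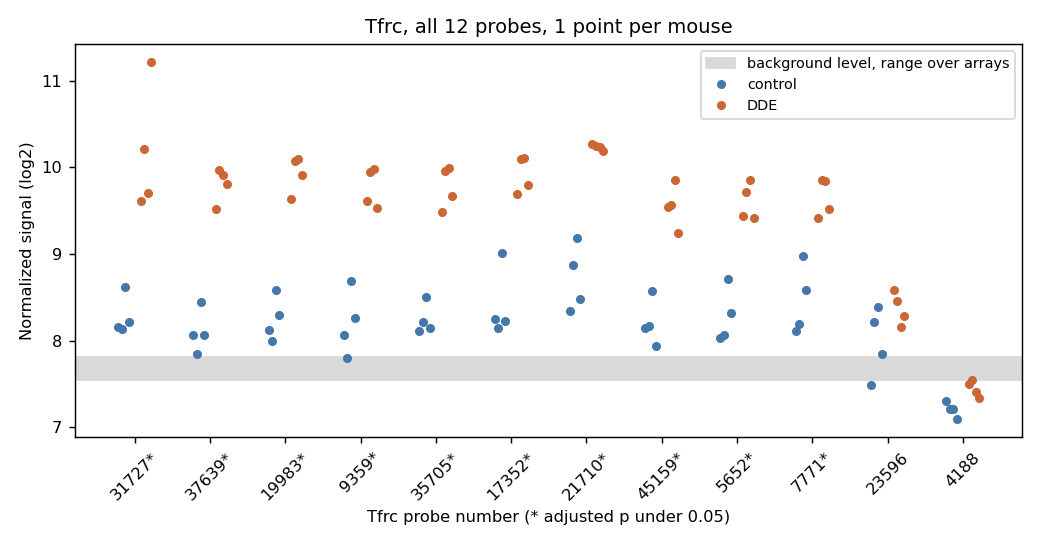
Normalized log2 signal (vertical axis) at each of the 12 Tfrc probes (horizontal axis, ordered by difference), with 1 point per mouse, 4 control and 4 DDE mice, and a grey band for the background level over the arrays. At the 10 probes with an asterisk (adjusted p under 0.05) the DDE mice lie above the controls, while probe 4188 is at or below background in all 8 mice.

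Tfr2 encodes transferrin receptor 2, a hepatocyte protein that senses iron-loaded transferrin and acts upstream of hepcidin. Its probe read 14.35, 14.43, 14.73 and 14.47 in controls and 14, 13.90, 14 and 13.69 in DDE mice. Every DDE mouse lay below every control, although the gap between the groups was of similar size to the range of the controls. The mean went from 14.50 ± 0.16 to 13.90 ± 0.15 (SD, n = 4), 1.51-fold lower (-0.60, SE 0.11, 95% confidence interval -0.86 to -0.34, limma adjusted p = 0.0397). With 1 mouse left out the difference was -0.65 to -0.52, and in the fit over genes it passed without DDE 4 (limma adjusted p = 0.0483) and in none of the other 7 such fits (up to 0.108). So the direction was shared by all mice, while the call was close to the threshold. The receptors of the pair thus moved in opposite directions, by 1.33 and -0.60, each against the same 4 controls.

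Transferrin and ferritin light chain could not be assessed for a rise. Trf, the gene of the plasma carrier that the liver secretes, read 15.92 to 16 in controls and 15.83 to 15.99 in DDE mice at probe 42164. At probe 42573 it read 15.94 to 16 and 15.97 to 16. Ftl1, which encodes the light chain of ferritin, the iron store, read 15.98, 15.99, 15.99 and 16 in controls and 15.96, 15.99, 15.99 and 15.73 in DDE mice. These signals lie at the top of the scale in nearly every mouse, so a rise could not show and a fall may be understated. The differences were -0.03 and 0.01 for Trf and -0.07 for Ftl1 (limma adjusted p = 0.784, 0.949 and 0.644). Tfrc and Tfr2 lay below the top of the scale. The mean Tfrc signals of controls, 8.01 to 8.57, were not far above the background levels of 7.55 to 7.81.

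The iron carriers of the cell membrane did not pass. Slc40a1 encodes ferroportin, the exporter that hepcidin acts on. It read 11.53, 11.50, 11.42 and 10.63 in controls and 11.43, 11.43, 10.92 and 11.41 in DDE mice, with 6 of the 8 mice between 11.41 and 11.53. The 2 that stood lower were control 4 and DDE 3, 1 in each group. The difference was 0.03 (SE 0.23, 95% confidence interval -0.52 to 0.57, limma adjusted p = 0.960), and without control 4 and DDE 4 it was -0.22 in the fit over genes (limma adjusted p = 0.569). Slc11a2, the gene of DMT1, which moves ferrous iron across membranes, was at background in all mice at probe 2858 and above it in 3 of 8 mice at probe 42863. Its probes differed by 0.13 and -0.22 (limma adjusted p = 0.614 and 0.534), and at these levels a change may not be detectable.

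Neither hepcidin gene passed, and the difference between them was not tested. The mouse has Hamp, which encodes hepcidin, and Hamp2, a close duplicate whose peptide is not known to share hepcidin's role in iron balance, and probes of such similar genes may bind both transcripts. Hamp read 13.62, 12.94, 12.64 and 14.15 in controls and 14.24, 14.37, 14.58 and 14.96 in DDE mice. All 4 DDE mice were above all controls, with control 4 and DDE 1 the closest. The mean was 13.34 ± 0.68 in controls and 14.54 ± 0.31 after DDE (SD, n = 4), 2.30-fold different (1.20, SE 0.34, 95% confidence interval 0.39 to 2.01), and it did not pass (limma adjusted p = 0.134). Over the array, 8% of probes had all DDE mice above all controls, and 3.8% had all below.

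The Hamp value of control 4 lay on a stained spot. With stained spots left out, the difference was 1.47 and passed in the fit over genes (limma adjusted p = 0.0374), as it did without the whole array of control 4 (1.47, limma adjusted p = 0.0476). Without control 4 and DDE 4 together it was 1.33 and did not pass (limma adjusted p = 0.0618). In the other 7 fits without 1 mouse it lay between 0.97 and 1.30 and did not pass. Whether the stain raised that value was not tested.

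Hamp2 read 15.62, 15.43, 14.09 and 15.33 in controls and 15.77, 14.59, 14.23 and 15.88 in DDE mice. The ranges were nearly the same, with control 3, DDE 2 and DDE 3 low, and the group means were equal at 15.12 (SD 0.70 and 0.83, n = 4). The difference was 0.00 (SE 0.50, 95% confidence interval -1.16 to 1.16, limma adjusted p = 1). The highest Hamp2 value was 15.88, below the top of the scale at 16.

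**Figure D3:**
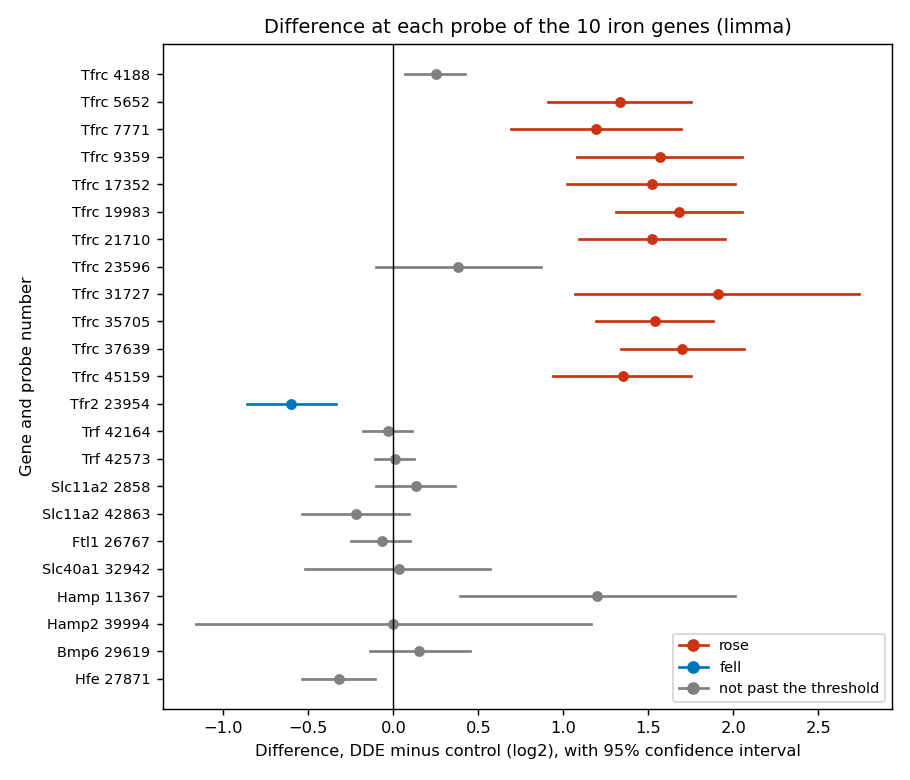
Difference between DDE and control (horizontal axis, log2) with its 95% confidence interval from limma at each of the 23 probes (vertical axis, gene and probe number), red for rose, blue for fell and grey for not past the threshold. The 10 red intervals are all of Tfrc and the blue one is Tfr2, and the grey interval of Hamp lies above 0 from 0.39 to 2.01.

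Hfe and Bmp6, which act upstream of hepcidin, read close to background. Hfe encodes the membrane protein, mutated in hereditary haemochromatosis, that joins transferrin sensing to hepcidin. It read 8.16, 8.03, 8.02 and 7.92 in controls and 7.90, 7.59, 7.60 and 7.74 in DDE mice and stood above background in every control but in only 2 DDE mice. The groups did not overlap, and the control signal was at least 1.23-fold higher with DDE values at background raised to it (-0.32, SE 0.093, limma adjusted p = 0.133). It passed with the stained spots dropped and all others quantile normalized (-0.39, limma adjusted p = 0.0222). Bmp6, whose protein is released by sinusoidal endothelial cells and drives hepcidin transcription, read 7.20 to 7.72 in controls and 7.43 to 7.75 in DDE mice. It was above background in 1 control and 2 DDE mice (0.15, limma adjusted p = 0.633), so this array gives little information on it.

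Beyond these members, 123 other genes of iron handling in 7 lists were measured, each by its brightest probe. Of them 10 rose and 0 fell, with a median difference of 0.10. Over all named genes 2.58% rose and 0.774% fell, with a median of 0.02. The lists were chosen with earlier results of these data known, so the 2 sets are not an independent comparison. Before adjustment, 11.4% of all named genes were higher and 4.57% lower with p under 0.05, the shares beside which the unadjusted counts of each list below stand. These shares include many genes at background, as 40.2% to 46.9% of the probes of an array were above it. They are thus a low baseline for bright genes. In a fit of the brighter probes alone (above the median of probe means) 987 probes rose and 317 fell, beside 1005 and 284 of all probes, and the median was 0.07. Without control 4 and DDE 4 the counts of the 123 genes risen and fallen were 11 and 2. The number risen was 2 without DDE 2, 4 without control 2 or DDE 3, 5 without DDE 1 and 6 without control 3, and between 7 and 11 without any other mouse. The number fallen was 2 without control 4, 1 without DDE 4 and 0 without any other mouse. Fth1 and Epas1 are each on 2 lists.

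**Figure D4:**
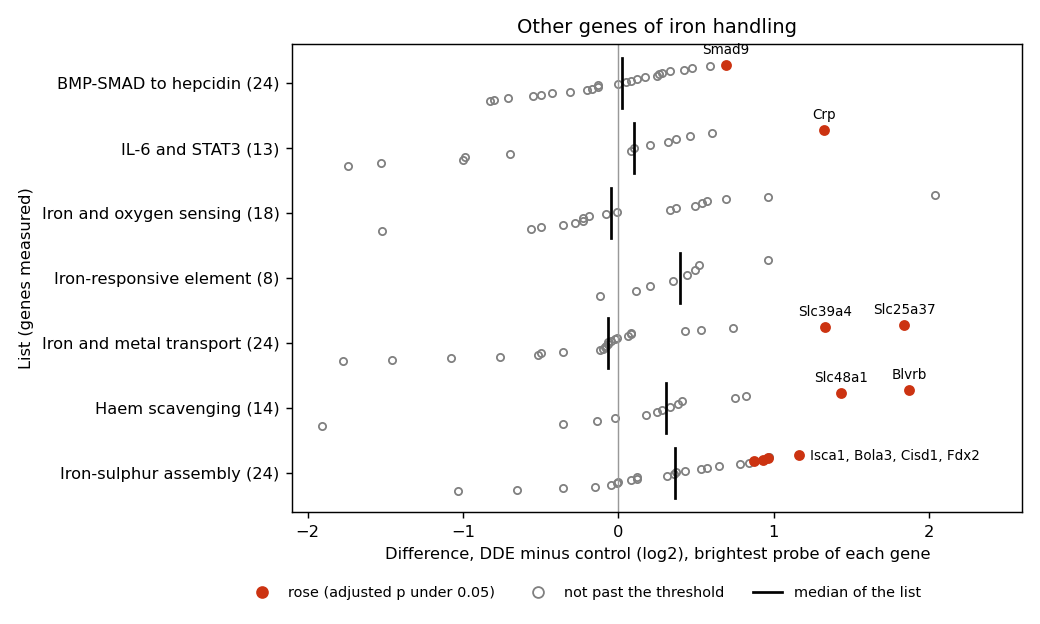
Difference between DDE and control (horizontal axis, log2) at the brightest probe of each gene in 7 lists of iron handling (vertical axis, with the number of genes measured), filled red where the gene rose, open grey where it did not pass, and a black line at each list's median. The 10 filled points all lie to the right of 0, with 4 of them in iron-sulphur assembly.

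The BMP and SMAD arm that controls hepcidin had 1 of 24 genes risen and 0 fallen (median 0.03), while before adjustment 5 were higher and 0 lower with p under 0.05. The riser was Smad9, a receptor-activated SMAD, at least 1.30-fold because all 4 controls were at background (limma adjusted p = 0.0178). It did not pass without control 3, DDE 1 or DDE 3 (up to 0.0544). Atoh8, which BMP signalling induces in liver, went from 8.01 ± 0.25 to 8.48 ± 0.046 with no overlap, and Hjv, the hemojuvelin co-receptor of BMPs, from 9.25 ± 0.33 to 9.84 ± 0.14 (SD, n = 4, limma adjusted p = 0.111 and 0.138). Each passed in 1 of 17 alternatives (limma adjusted p = 0.0432 and 0.0472). For Atoh8 it was that with stained spots dropped and all others quantile normalized (0.38). Among targets often read as a sign of BMP signalling, Id1 differed by 0.05 and Smad6 by -0.13 (limma adjusted p = 0.952 and 0.625), and the sign of Id1 changed in some alternatives. Id1 was above background in 2 of 4 controls, and its 95% confidence interval was wide (-0.76 to 0.86), so its value gives little information. Smad7, another such target, read 11.85 in control 3 on a stained spot and 7.68 to 8.21 in the other controls, beside a DDE mean of 8.13 ± 0.25. Its difference was -0.80, and 0.17 without stained spots (limma adjusted p = 0.668 and 0.694). Tmprss6, the protease that cleaves hemojuvelin and lowers hepcidin, was 13.81 in both groups (0.00, 95% confidence interval -0.30 to 0.30).

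In the interleukin-6 and STAT3 arm 1 of 13 genes rose and 0 fell (median 0.10), while before adjustment 3 were higher and 2 lower with p under 0.05. Crp, the gene of C-reactive protein, rose 2.50-fold from 12.91 ± 0.37 to 14.23 ± 0.15 (limma adjusted p = 0.0184), and did not pass without control 2, DDE 2 or DDE 3 (up to 0.0639). Saa1 and Saa2, also on the list, went the other way and did not pass (-0.70 and -1.53, limma adjusted p = 0.508 and 0.193). At Saa2 every DDE mouse was below every control, with a stained spot in control 4. Il6ra, the interleukin-6 receptor, was 11.62 ± 0.38 in controls and 10.63 ± 0.19 after DDE with no overlap (-0.99, limma adjusted p = 0.0507), and it passed without control 4 (-1.14, limma adjusted p = 0.0298) and in 5 other alternatives of 17. Stat3, which carries the signal to the hepcidin promoter, had 0 of 11 probes past the threshold, with differences from -1 to 0.29. The -1 was at its brightest probe, which had stained spots in controls 3 and 4. All its probes but 31634 were lower in DDE mice. Probe 31634 (0.29) was at or below background in all controls and had a stained spot in DDE 4.

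Of 18 genes that sense or chaperone iron or sense oxygen, 0 passed, while before adjustment 5 were higher and 2 lower with p under 0.05 (median -0.05). Aco1 and Ireb2 encode the iron regulatory proteins. Aco1 was above background in 1 mouse of each group, and in controls that was control 4 at 9.79 on a stained spot. Its difference was -0.56, and 0.04 without stained spots (limma adjusted p = 0.637 and 0.899). Ireb2 was above background in 2 mice of each group (-0.23, limma adjusted p = 0.614). The smallest p was that of Epas1, the gene of HIF-2 alpha, at its brightest of 3 probes (0.96, limma adjusted p = 0.0806). Its other probes differed by 0.43 and -0.60 (limma adjusted p = 0.133 and 0.6). The groups overlapped only at the probe with -0.60. On a list of 8 transcripts taken as having iron-responsive elements, with Epas1 again among them, 0 passed (median 0.39). Before adjustment 4 of the 8 were higher and 0 lower with p under 0.05. Whether each carries such an element in this species was not checked. The list includes Fth1, the ferritin heavy chain, which was near the top of the scale in 3 controls and 2 DDE mice (15.93 ± 0.066 and 15.80 ± 0.21, limma adjusted p = 0.633).

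Among 24 other carriers, reductases, oxidases and stores 2 rose and 0 fell (median -0.07), while before adjustment 4 were higher and 4 lower with p under 0.05. Slc25a37, or mitoferrin 1, which brings iron into mitochondria, rose 3.57-fold at its brighter probe, from 10.22 ± 0.35 to 12.06 ± 0.41, and by 0.38 without passing at the other (limma adjusted p = 0.0169 at the brighter). The brighter probe did not pass without control 2, DDE 1 or DDE 2 (up to 0.0589). Slc39a4, a member of the ZIP family known as a zinc importer, rose 2.51-fold, from 12.51 ± 0.26 to 13.84 ± 0.20 (limma adjusted p = 0.0113), and passed in all 8 fits without 1 mouse. Slc39a14, the hepatocyte importer of iron that is not bound to transferrin, was 10.83 ± 0.33 and 10.76 ± 0.39 (limma adjusted p = 0.896), and its sign changed in some alternatives. Cp, or ceruloplasmin, the ferroxidase of plasma, was 14.98 ± 0.41 and 14.88 ± 0.41 (limma adjusted p = 0.863).

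Haem scavenging and transport had 2 of 14 genes risen and 0 fallen (median 0.31), while before adjustment 4 were higher and 0 lower with p under 0.05. Blvrb, a biliverdin reductase, rose 3.64-fold, from 11.43 ± 0.18 to 13.30 ± 0.50 (limma adjusted p = 0.0152), and did not pass without DDE 2 (0.0572). Slc48a1, which moves haem out of lysosomes, rose 2.70-fold, from 10.27 ± 0.30 to 11.70 ± 0.48 (limma adjusted p = 0.0384), and of the 8 fits without 1 mouse it passed in that without DDE 4 alone (0.0248 to 0.112). Hmox1, the inducible haem oxygenase, was 9.33 ± 0.44 and 9.74 ± 0.25 at its brighter probe (limma adjusted p = 0.501). Its other probe differed by 0.35 and did not pass (limma adjusted p = 0.209). Haptoglobin (Hp) and haemopexin (Hpx), which clear haemoglobin and haem from plasma, were bright, at group means of 15.99 and 15.97 for Hp and 15.68 and 15.86 for Hpx. Hp was near the top of the scale in all 8 mice, and Hpx in 2 controls and 3 DDE mice.

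Iron-sulphur cluster assembly had 4 of 24 genes risen and 0 fallen (median 0.36), while before adjustment 9 were higher and 1 lower with p under 0.05. Fdx2, a mitochondrial ferredoxin that supplies electrons for cluster assembly, rose 2.23-fold (limma adjusted p = 0.0249). Bola3 and Isca1, which act late in mitochondrial assembly, rose 1.91-fold and 1.83-fold at their brighter probes (limma adjusted p = 0.0192 and 0.0143), while their other probes differed by 0.52 and 0.10 and did not pass. Cisd1, an iron-sulphur protein of the outer mitochondrial membrane, rose 1.94-fold (limma adjusted p = 0.0356). In fits without 1 mouse, Fdx2 passed without control 4 or DDE 4 (0.0131 to 0.0837) and Cisd1 without control 2 or DDE 4 (0.0311 to 0.111). Bola3 did not pass without control 2 or DDE 1, 2 or 3 (up to 0.0672), nor Isca1 without control 2 or DDE 2 (up to 0.0521).

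Markers of the cells in a liver sample were read beside these results. Hepatocyte genes were bright, with log2 summed signals over 17 markers of 19.46 to 19.50 in controls and 19.02 to 19.34 in DDE mice, and 2 of them (Apob and Apoa1) fell. These sums did not overlap between the groups. Markers such as Alb, Apoa2 and Ahsg were near the top of the scale in most mice, which limits what the sums can show. Tfrc is abundant in red cell precursors, and of 16 erythroid markers 0 passed and 1 was higher before adjustment with p under 0.05, with summed signals of 16.98 to 17.61 and 16.98 to 17.81. The sums include Hba-a2, near the top of the scale in 4 controls and 3 DDE mice, where a rise could not show. Above background in all 8 mice were 8 of the 16, the globins Hba-a1, Hba-a2, Hbb-b1 and Hbb-b2 with Alas2, Fech, Epor and Ermap, while 6 (Klf1, Gata1, Rhag, Epb42, Sptb and Trim10) were not above it in any, and Slc4a1 and Kel were in some. Alas2, which starts haem synthesis in red cell precursors, was the one higher before adjustment, at 12.09 ± 0.26 and 12.58 ± 0.19 (SD, n = 4, limma adjusted p = 0.163). Slc40a1 is also expressed by Kupffer cells, and of 17 markers of these and other macrophages 0 passed and 2 were lower before adjustment, with summed signals of 13.23 to 14.32 in controls and 13.25 to 13.83 in DDE mice and a median of -0.24. Cd5l, the brightest of them, was 11.88 ± 0.35 and 11.07 ± 0.45 (SD, n = 4, limma adjusted p = 0.183). Of 17 sinusoidal endothelial markers 1 rose, Flt4, at least 1.45-fold, before adjustment 2 were higher and 0 lower, and the summed signals overlapped (14.28 to 14.63 and 14.30 to 14.56). Of 14 stellate and fibroblast markers 1 rose, Reln, which was at background in all controls and in 2 DDE mice, and before adjustment 5 were higher and 2 lower, with summed signals of 13.92 to 14.22 and 13.93 to 14.51. They included Col3a1 (1.07), Colec11 (0.83) and Dcn (-0.96), which did not pass (limma adjusted p = 0.0877, 0.141 and 0.0767). Of 6 bile duct markers 0 passed, before adjustment too (10.09 to 13.79 and 9.99 to 10.12), and of 15 leukocyte markers 0 passed and 1 was lower before adjustment (12.86 to 14.62 and 13.26 to 13.84). The bile duct sum of control 4 included Sox9 at 13.68 on a stained spot. In DDE 4 the stellate and fibroblast sum included Des at 13.65 on a stained spot, beside 7.81 to 7.93 in the other DDE mice. The erythroid sum of DDE 4 included Hbb-b2 at 15.57 on a stained spot, beside 11.41 to 13.05 in the other DDE mice. The upper ends of such sums are thus uncertain. The part of these cells in the differences of the iron genes was not tested.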

How the data were processed

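The authors deposited a table of normalized log2 signals for 42957 probes on 8 one-colour Cy3 arrays of mouse liver, 1 per mouse. The scanner, the background correction, the normalization and any filter were not given in the sources used here. Values were used as deposited. Symbols came from the supplied probe annotation (33009 probes with 1 symbol, 9948 with none). Genome positions and probe sequences were not used here.

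Each probe was fitted with limma 3.58.1 in R 4.3.3 (lmFit and eBayes, DDE against control, no covariate), two-sided, with Benjamini-Hochberg adjustment over all 42957 probes. The mean over a gene's probes was fitted likewise over 22471 genes. In lists a gene was read at its brightest probe. Background was the 0.95 quantile of 1634 receptor probes per array without stained spots, and a fold with dim-group values at or below it is a lower bound after raising them to it. Values from 15.9 were taken as near the top. A spot was stained where the median deviation from the probe median, in a window of 7 rows by 5 columns (85 spots per row), passed 0.3. Precision is limited by the number of arrays, 4 per group.

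The members and lists were chosen with earlier results of these data known. Named were all 10 members, genes past the threshold in each list (at most 6, or that with the smallest p if none passed), 16 genes fixed by name, and the brightest marker of a cell type where its values are given. Other markers, and Saa1 and Saa2, were named after their values were seen. Alternatives were to normalize by quantiles, to centre at the 75th percentile, to drop the dimmer probes (below the median of probe means), to weight arrays, to let variance follow intensity with a robust prior, to block by replicate number, to drop each array in turn, to drop stained spots, and to summarise probes otherwise. Leaving out control 4 and DDE 4 together, and quantile normalizing after stained spots were left out, were added after seeing the data. The procedure was tested on simulated data.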

Additional observations from a re-analysis of the deposited data

Results flagged for a closer look

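Among 50 probes, 100 groups of 4 mice were checked for a value far from the other 3. The probes were all those of the members and the brightest of each other iron gene named by rule. Such a value was found in 12 groups, where chance gives about 1 in 20. Of the members, Slc40a1 stood low in control 4 (10.63, nearest 11.42) and in DDE 3 (10.92, nearest 11.41), both on unstained spots. Tfrc stood high in control 3 at probe 17352 (9.01, nearest 8.25) and at probe 31727 (8.62, nearest 8.21). Ftl1 stood low in DDE 4 (15.73, nearest 15.96) and Trf in control 3 at probe 42573 (15.94, nearest 15.99), at the top of the scale. Of the other iron genes, stained spots gave Smad7 in control 3 (11.85), Stat3 in control 3 (11.22) and Aco1 in control 4 (9.79). Unstained ones were Slc39a14 in DDE 4 (10.18), Hpx in DDE 3 (15.56) and Slc39a4 in DDE 2 (14.13).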

How the results depend on the processing

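All values are log2 differences, DDE minus control, with limma. The rise of Tfrc kept its call in 18 of 19 alternatives and lost it with the replicate number as a block (1.3256, adjusted p = 0.0568). The fall of Tfr2 kept its direction in all 19 and lost its call in 11: at -0.5975 with an intensity trend and robust variance, with the replicate block and without the dimmer probes, at -0.5367 without control 4 and DDE 4, and in 7 of 8 fits without 1 mouse (-0.6458 to -0.5192). Hamp passed with array weights (1.2092), without stained spots (1.4708) and with the rest then quantile normalized (1.4724), and ranged from 0.9675 to 1.4708 without 1 mouse. Hfe passed with stained spots left out and the rest quantile normalized (-0.3872).

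Over all probes same-numbered mice showed little shared deviation (correlations 0.08, 0.02, 0.04 and -0.01), and the replicate numbers were not taken as pairs, although mice with the same number ranked alike in their share of stained spots. The replicate block left 8 probes risen and 1 fallen on the array, 0 and 0 of the member probes, and 0 of the other iron genes risen. Member probes risen numbered 4 to 9 without 1 mouse. Those fallen numbered 0 without any 1 mouse, with the trend, without the dimmer probes and without control 4 and DDE 4, and 2 without stained spots and quantile normalized. Other iron genes risen numbered 2 to 11 without 1 mouse. Those fallen, 0 as deposited (7 lists), numbered 1 with the mean of probes or without the dimmer probes, 2 with array weights or without control 4 and DDE 4, 3 without stained spots, 7 when the rest was then quantile normalized, and 0 to 2 without 1 mouse. Over all probes the counts risen and fallen, 1005 and 284 as deposited, were 399 and 112 with the trend, 1607 and 533 with array weights, 1265 and 443 without control 4 and DDE 4, 1504 and 1091 with stained spots left out and the rest quantile normalized, and 271 to 1362 and 61 to 428 without 1 mouse.

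Signs changed for genes that did not pass. Slc40a1 was -0.0755 with array weights, -0.2233 without control 4 and DDE 4, -0.148 without stained spots and quantile normalized, and -0.1858 to 0.1533 without 1 mouse. Trf was 0.0075 at its brightest probe. Aco1 was 0.0833 without control 4 and DDE 4, 0.0375 without stained spots and 0.0173 when then quantile normalized. Smad7 was 0.1708 without stained spots and 0.1004 when then quantile normalized. Hpx was -0.0133 and Id1 -0.0367 without control 4 and DDE 4, and Id1 was -0.0079 without stained spots and quantile normalized. With array weights Id1 was -0.043 and Slc39a14 3e-04. Without 1 mouse the ranges were -0.7992 to 0.0375 (Aco1), -0.2833 to 0.0408 (Cp), -0.1542 to 0.3158 (Id1), -0.2108 to 0.1242 (Slc39a14), -0.0746 to 0.0088 (Slc11a2), -1.2192 to 0.1708 (Smad7), -0.0229 to 0.0071 (Trf), and -0.0525 to 8e-04 and -0.0058 to 0.0142 (its probes 42164 and 42573). The causes were not tested. Dropping the dimmer probes left no value for Bmp6 and other dim probes. Signals at the top of the scale (Trf, Ftl1) and at background (Slc11a2, Bmp6) limit what could be detected.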
